A study of Mus musculus with 20 samples.

Results

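The proteasome genes described here were the subunits of the 20S core particle and of the 19S cap, the interferon-inducible catalytic subunits, the proteasome activators and the maturation factor Pomp in mouse liver. They were chosen by gene symbol from a list of 40 genes, and all 40 were found in both RNA-seq tables, among 18149 genes that the tables of the 2 sexes share by Ensembl identifier. The mice carried Midn XTR, a conditional gene-trap cassette in the midnolin gene that Cre recombinase inverts. Livers labelled WT held the allele as Midn XTR and livers labelled Midn-T held the inverted allele, Midn TR. The driver was Albumin-Cre, with which the authors aimed to inactivate the gene in hepatocytes. Inversion in other liver cells was not examined here. Whether the WT mice carried Cre is not stated in the sources used here. RNA came from whole liver of mice aged 11 to 14 weeks, with 3 WT and 3 Midn-T livers for each sex, and 8 further liver samples of the series for chromatin accessibility were not used here. The value of a gene is the authors' mean normalized count over the 6 livers of 1 sex, WT and Midn-T together. No value for a single liver was used, so no level below carries a replicate error, differences between genes and between sexes were not tested, and the difference between Midn-T and WT was not analysed here.

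The proteasome is the protease that breaks down most short-lived proteins of the cell. Its barrel-shaped core is built of outer rings of alpha subunits, which form the gate, and inner rings of beta subunits, of which Psmb5, Psmb6 and Psmb7 carry the active sites. The 19S cap binds ubiquitinated proteins, removes the ubiquitin and feeds the unfolded chain into the core with a ring of ATPases. Interferon induces the catalytic subunits Psmb8, Psmb9 and Psmb10, which replace Psmb5, Psmb6 and Psmb7 in newly built particles, the immunoproteasomes. Midnolin brings nuclear proteins to the proteasome without ubiquitin, which is why the level of its partner is of interest in livers in which its gene was trapped.

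Proteasome genes were well expressed in the livers of both sexes. Levels between genes were compared per length, as the mean normalized count per kb of coding sequence of the Ensembl canonical transcript. The order of single genes holds on this scale and changed for many of them when other annotated lengths were used. Examples, not every such change, are given with the groups. The median of the 40 genes was 1792 per kb in males and 1690.0 per kb in females, against 349 and 352 per kb for the median of 12962 protein-coding genes with a mean normalized count of at least 10 in both sexes. All 40 lay above that median in each sex. The middle member stood at percentile 84.8 of these coding genes in males and 84.3 in females, and 29 members in males and 26 in females lay above percentile 80. Summed over all 40, the mean normalized counts came to 79827 in males and 75177 in females, which is 0.264% and 0.244% of all signal in the tables. The tables of the sexes were normalized separately. The order of the 40 levels was nonetheless close between them, with a Pearson correlation of 0.984 for log2 levels and a Spearman correlation of 0.985, as a description over 40 genes that share their libraries and lengths. Over all 12962 coding genes the Pearson value was 0.982. Those genes span a much wider range of levels, so the 2 values do not show whose closeness is greater.

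**Figure D1:**
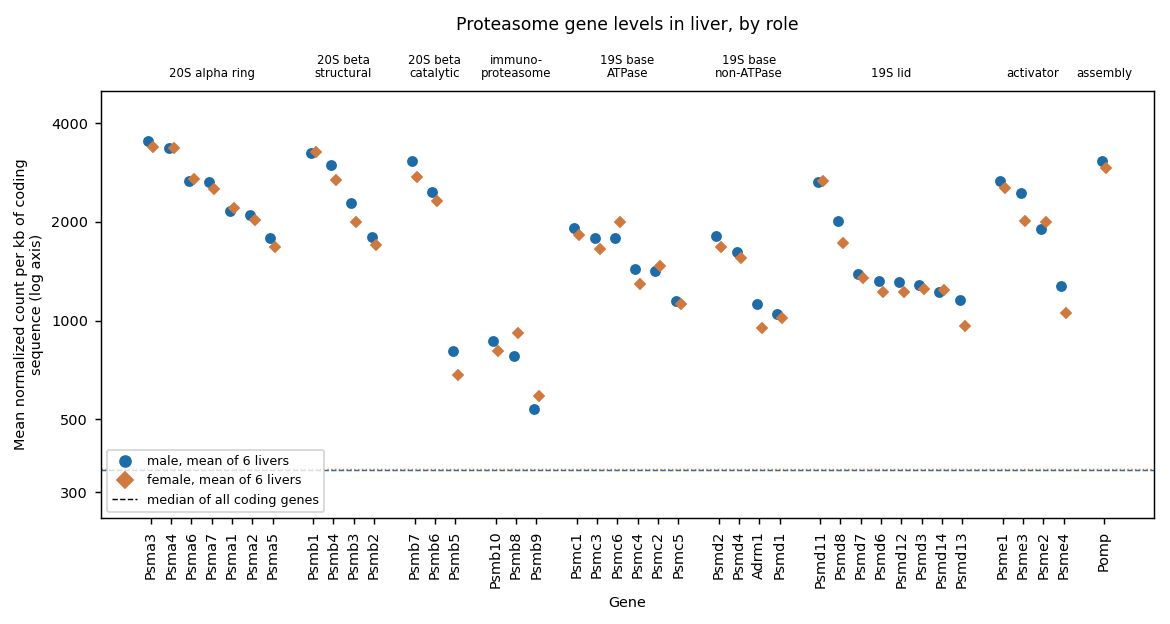
Mean normalized count per kb of coding sequence (log axis) for each of the 40 genes, grouped by role, with circles for the mean of 6 male livers and diamonds for the mean of 6 female livers and dashed and dotted lines for the median of all coding genes in males and females. Psma3 and Psma4 lie highest, Psmb5 and the 3 immunoproteasome genes lowest, and every gene lies above the lines at 349 and 352 per kb.

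The median level per kb was higher in the constitutive core than in the cap, whereas the median mean normalized count was nearly equal. The 14 core genes of the alpha and beta rings had a median of 2561 per kb in males and 2414 per kb in females, and the 18 cap genes 1400 per kb and 1319 per kb. Of the 14 core genes, 13 lay above the median cap gene in each sex, and the exception was Psmb5. Only 1 of the 18 cap genes, Psmd11, lay above the median core gene in each sex. In mean normalized counts the medians were 1867 and 1804 for the core and 1835 and 1787 for the cap. The median coding length was 741 bases for core genes and 1238 bases for cap genes. The ratio of the medians, 1.83 in each sex per kb of coding sequence, was 1.02 in males and 1.01 in females with no length scaling, and 1.16 and 1.04 per kb of all annotated exons.

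The 7 genes of the alpha ring ranged from 1789 per kb for Psma5 to 3523 per kb for Psma3 in males and from 1670.4 to 3380 per kb for the same genes in females. This is a spread of 1.97-fold in males and 2.02-fold in females. Per coding kb Psma3 held the highest level of all 40 genes in both sexes and Psma4 the next, with 3370 per kb in males and 3358 per kb in females. Psma6 had 2669 and 2698 per kb, Psma7 2650 and 2520 per kb, Psma1 2162 and 2196 per kb and Psma2 2095 and 2028 per kb in males and females. Psma3 fell to rank 35 in males and 34 in females per kb of all annotated exons, and to rank 28 in each sex per kb of the whole canonical transcript. It is also a gene whose coding sequence is largely shared with a pseudogene. The subunits of a ring are built into the particle in equal numbers. The spread among their transcripts depends on the length used and reached 4.97-fold in males and 4.88-fold in females per kb of the whole canonical transcript, and 11.0-fold and 10.4-fold per unique coding position, where Psma3 decides it.

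The 4 beta genes without an active site lay within 1.81-fold of each other in males and 1.91-fold in females per coding kb. Psmb1 was highest, with 3248 per kb in males and 3255 per kb in females, followed by Psmb4 with 2989 and 2678 per kb. Psmb3 had 2277 per kb in males and 1995 per kb in females. Psmb2 was lowest, with 1796 and 1702 per kb. The spread was 7.43-fold and 7.02-fold per kb of the whole canonical transcript, where Psmb4 was highest and Psmb1 fell to rank 36 of 40 in each sex.

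The 3 genes of the constitutive active sites stood apart from each other. Psmb7, which carries the trypsin-like activity, had 3063 per kb in males and 2747 per kb in females, and Psmb6, the caspase-like subunit, 2472 and 2308 per kb. Psmb5, the chymotrypsin-like subunit and the target of proteasome inhibitors used in myeloma, had 809 per kb in males and 684 per kb in females. It was the lowest of the 14 core genes per coding kb in both sexes and ranked 38 of 40 in males and 39 of 40 in females. Per kb of all annotated exons, 5 core genes in males and 3 in females lay below it, and per kb of the whole canonical transcript only Psmb2 did. The highest of the 3 exceeded the lowest by 3.79-fold in males and 4.02-fold in females. This low value is uncertain, because only 54.7% of the 75-base words of the Psmb5 coding sequence occur at a single place in the genome and the authors counted uniquely mapped reads only. Divided by the unique positions alone, Psmb5 was still the lowest of the 3, but the highest of them exceeded it by 2.17-fold in males and 2.30-fold in females. This scale can overcorrect, since the count of a gene also holds reads from untranslated regions and pairs that reach unique sequence. Psma3 came to 26166 per kb on it in males.

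Transcripts of the immunoproteasome subunits were present in these livers, at levels per coding kb below nearly every constitutive subunit. Psmb10, or MECL-1, had 863 per kb in males and 807 per kb in females. Psmb8, or LMP7, had 777 per kb in males and 917 per kb in females, and Psmb9, or LMP2, had 536 and 588 per kb. Together with Psmb5 they were the 4 genes that ranked below every cap gene in each sex per coding kb. Per kb of all annotated exons only 2 genes did, Psmb9 and Psmb2. On that scale Psmb8 passed Psmd14, and Psmb5 and Psmb10 passed several cap genes. Psmb9 was the lowest of all 40 with each length in males and with each but the whole canonical transcript in females, at percentile 60.7 of coding genes in males and 63.2 in females. Psmb9 and Psmb8 lie near each other in the class II region of the major histocompatibility complex. They are at chr17:34400960-34406738 on the minus strand and chr17:34416690-34420428 on the plus strand (GRCm39). The 9951 bases between them are mostly covered by the peptide transporter gene Tap1. Psmb10 lies elsewhere, at chr8:106662362-106665077.

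Each inducible subunit was set against the constitutive subunit whose place it takes. Psmb9 stood at 0.217 of the level of Psmb6 in males and 0.255 in females. Psmb10 stood at 0.282 and 0.294 of the level of Psmb7. Psmb8 was close to Psmb5, at 0.961 of its level in males and 1.34 in females. Which of this last pair is higher depends on the length used. Per unique position the ratio of Psmb8 to Psmb5 was 0.524 in males and 0.731 in females, and per kb of all annotated exons it was 0.528 and 0.737. On that scale Psmb10 was level with Psmb7, at 0.966 of it in males and 1.01 in females, and Psmb9 stood at 0.115 and 0.135 of Psmb6. In whole liver, cells that carry immunoproteasomes at rest, such as Kupffer cells and other leukocytes, contribute RNA beside hepatocytes. Fewer cells of a type and less RNA per cell cannot be told apart in bulk tissue, and the part of each cell type in these levels was not tested.

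**Figure D2:**
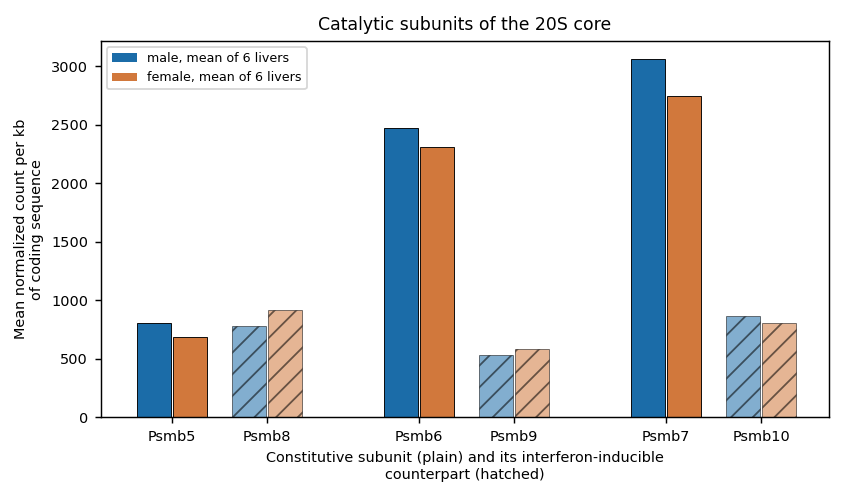
Mean normalized count per kb of coding sequence for the constitutive catalytic subunits (plain bars) and their inducible counterparts (hatched bars), with the mean of 6 male livers in blue and of 6 female livers in orange. Psmb9 and Psmb10 stand well below Psmb6 and Psmb7, whereas Psmb8, at 777 and 917 per kb, stands close to Psmb5, at 809 and 684 per kb.

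The 6 ATPases of the cap base, which unfold substrates and open the gate of the core, lay close together per coding kb. In males they ran from 1149 per kb for Psmc5 to 1911 per kb for Psmc1, a spread of 1.66-fold, and in females from 1125 per kb for Psmc5 to 1997 per kb for Psmc6, a spread of 1.77-fold. The spread was 3.07-fold and 3.14-fold per kb of the longest transcript. Per kb of all annotated exons Psmc5 was no longer the lowest, at rank 16 of 40 in each sex. Between the lowest and the highest per coding kb lay Psmc3, with 1787 per kb in males and 1650 per kb in females. Psmc4, with 1432 and 1294 per kb, and Psmc2, with 1417 and 1462 per kb, lay there too. Psmc3 ranked 22 of 40 in males and 23 in females on this scale, but 2 and 3 per kb of the longest transcript. Psmc6 had 1784 per kb in males, and Psmc1 had 1821 per kb in females. Per coding kb Psmc6 changed its place the most of all 40 genes, from rank 23 in males to rank 16 in females. Per kb of all annotated exons it went from rank 20 to 15, and Psme3 moved further, from rank 22 to 28.

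The other base subunits are the large scaffold proteins Psmd1 and Psmd2 and the ubiquitin receptors Psmd4 and Adrm1, known as Rpn10 and Rpn13. Psmd2 had 1815 per kb in males and 1678 per kb in females, whereas its scaffold partner Psmd1 had 1047 and 1016 per kb. Psmd4 had 1621 and 1554 per kb. Adrm1 had 1126 and 952 per kb, with only 19.6% of its coding words unique. Psmd4 stood at 1.44 times Adrm1 in males and 1.63 times in females per coding kb, but at 0.284 and 0.322 of it per unique coding position.

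Of the 8 lid genes, 6 lay within 1.19-fold of each other in males and 1.40-fold in females per coding kb, and 2 stood above them. Per kb of the longest transcript the same 6 were spread over 4.05-fold and 3.68-fold. Psmd11, or Rpn6, which clamps the cap onto the core, had 2653 per kb in males and 2658 per kb in females, and Psmd8 had 2006 and 1719 per kb. The deubiquitinase Psmd14, or Rpn11, had 1219 and 1242 per kb, and its inactive partner Psmd7 had 1382 and 1344 per kb. Psmd3, Psmd6 and Psmd12 lay between 1286 and 1321 per kb in males and between 1221 and 1248 per kb in females. Psmd13 was the lowest per coding kb, with 1159 in males and 961 in females, whereas Psmd14 was the lowest per kb of all annotated exons, of the longest transcript and of the whole canonical transcript. Per coding kb, the spread in the lid was 2.29-fold and 2.77-fold.

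Activators bind the ends of the core in place of the cap. Psme1 and Psme2, the alpha and beta subunits of the interferon-inducible PA28 ring, had 2661 and 1908 per kb in males and 2540 and 2003 per kb in females, a ratio of 1.39 and 1.27. The order turned with other lengths, to ratios of 0.623 and 0.566 per kb of all annotated exons, 0.547 and 0.497 per kb of the longest transcript, 0.332 and 0.302 per kb of the whole canonical transcript and 0.596 and 0.542 per unique coding position. Their genes face each other on chromosome 14, at chr14:55815190-55822034 on the plus strand and chr14:55824895-55829173 on the minus strand, with 2860 bases between their ends. Psme3, the nuclear activator PA28 gamma, had 2454 per kb in males and 2017 per kb in females. Psme4, the nuclear activator PA200, had the largest mean normalized count of the 40 genes, 7067 in males and 5816 in females. Over its coding sequence of 5529 bases this came to 1278 and 1052 per kb, or rank 31 and 33 of 40. Per kb of all annotated exons it ranked 3 and 6. The maturation factor Pomp, which helps the beta rings close, ranked 4 of 40 in both sexes with 3075 per kb in males and 2915 per kb in females. It ranked 1 in each sex per kb of the whole canonical transcript, but 36 and 37 per kb of all annotated exons.

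Near-identical copies elsewhere in the genome limit several of these levels. Of the 40 coding sequences, 27 consist only of 75-base words that occur once in GRCm39, and 13 share words with another place. In 6 genes under 60% of the words were unique. These were Psma3 with 14.9%, Adrm1 with 19.6%, Psma5 with 37.1%, Psme2 with 40.6%, Psmb5 with 54.7% and Psmb3 with 57.7%. Reads that match such a copy equally well are left out of a count of uniquely mapped reads, so these levels may be too low, although pairs of reads of 150 bases can reach unique sequence.

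The genes annotated as copies had low means. These may be too low as well, since reads that match both places equally well are left out for the copy too. The processed pseudogene Gm13835, which shares 662 bases with Psma3 at chr6:31118917-31119578, had a mean normalized count of 70.5 in males and 63.3 in females against 2695 and 2586 for Psma3. Psme2b, which shares 485 bases with Psme2, had 85.3 and 86.0 against 1368 and 1436 for Psme2. Adrm1b, with 986 shared bases, had 15.2 and 11.0 against 1375 and 1163 for Adrm1. Gm3375, with 384 bases in common with Psmb5 on chromosome 7, had 4.99 in males and was not listed in females. Longer genes that span the same stretches had higher means, such as Lncpint over the Psma3 copy with 4186 and 4227 and Map3k13 over the Psmb3 copy with 1131 and 1871, and how many of their reads came from the copy is not known. How many reads were discarded as matching both a gene and its copy cannot be read from the tables.

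**Figure D3:**
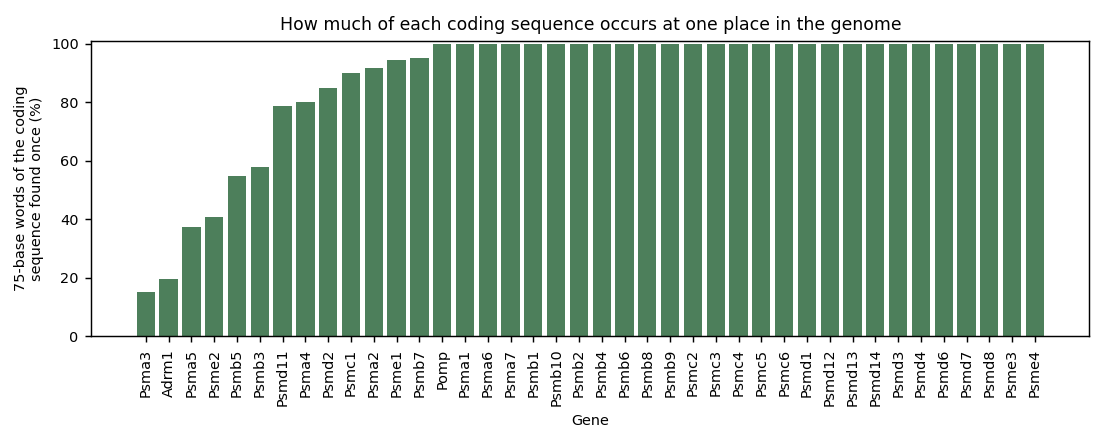
Share of the 75-base words of each coding sequence that occur at only 1 place in the mouse genome (percent), for the 40 genes in rising order. Psma3 and Adrm1 lie lowest, at 14.9% and 19.6%, and 27 genes reach 100%.

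Between the sexes, most proteasome genes were slightly lower in the female means. The ratio of the female to the male mean was divided by 1.02, its median over the 12962 coding genes, since each sex was normalized on its own. The rescaled ratio of the 40 genes had a median of 0.936 and ran from 0.808 to 1.16. It was under 1 for 34 genes and above 1 for 6, where by construction 50% of all coding genes lie on either side. Without the division, or with the median taken over genes with a mean of at least 100, 10 genes were above 1. These departures were small. Of the 40 ratios, 35 lay within 1.2-fold of 1, or 87.5%, against 65.4% of all coding genes, and every one lay inside the range from 0.705 to 1.54 that holds the middle 90% of coding genes. Without a value for each liver, none of these ratios can be set against the spread between mice, and other differences between the male and female cohorts cannot be told apart from sex.

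The lowest ratios belonged to the nuclear activators. Psme3 had 0.808, from mean normalized counts of 1870 in males and 1537 in females, and Psme4 had 0.809. Psmd13 followed with 0.815, from 1307 in males and 1084 in females, then Psmb5 with 0.830, Adrm1 with 0.831 and Psmd8 with 0.842. At the other end, Psmb8 had 1.16, from 644 in males and 759 in females. Psmc6 had 1.10, from 2082 and 2331, and Psmb9 had 1.08, from 352 and 386. Psme2 had 1.03, Psmc2 had 1.01 and Psmd14 had 1.00.

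By role, the ratios were most alike in the alpha ring, where all 7 were under 1 and ran from 0.918 for Psma5 to 0.998 for Psma1. The 4 structural beta genes ran from 0.861 for Psmb3 to 0.985 for Psmb1, and the 3 constitutive catalytic genes from 0.830 to 0.917. Among the cap genes, 3 of 18 were above 1. The inducible catalytic subunits did not move as a group. Psmb8 and Psmb9 were above 1, whereas Psmb10 had 0.919. Between the PA28 subunits, Psme2 was above 1 and Psme1, with 0.938, was not.

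**Figure D4:**
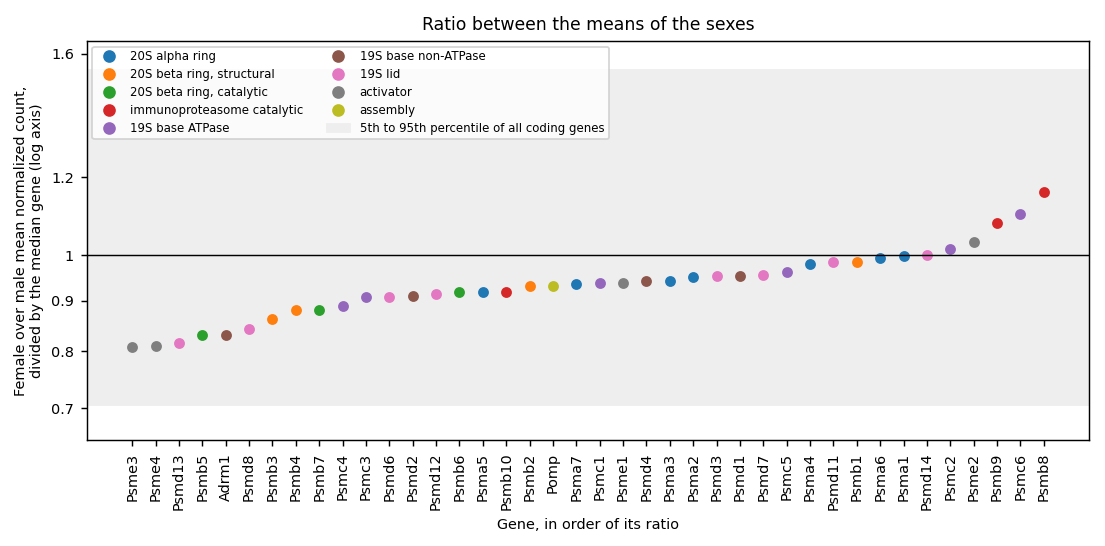
Female over male mean normalized count of each of the 40 genes, divided by the median ratio of all coding genes (log axis), in rising order and coloured by role, with the 5th to 95th percentile of all coding genes shaded. The points run from 0.808 for Psme3 to 1.16 for Psmb8, 34 of 40 lie below the line at 1, and all lie within the shaded band.

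Ratios of cell type markers lay on both sides of 1. Of 33 markers none was at 0 in either sex. Only Tat, Marco and Krt19 had rescaled ratios outside the range from 0.705 to 1.54 given above for coding genes. All 5 stellate cell markers had rescaled ratios above 1, from 1.23 for Col1a1 to 1.39 for Lrat, and their summed means were 9352 in males and 12234 in females. Of the 5 endothelial markers 4 were above 1, with a range from 0.730 for Lyve1 to 1.19 for Clec4g and sums of 10822 and 12434. Of the 5 cholangiocyte markers also 4 were above 1, with sums of 1062 and 1188. They ranged from 0.839 for Sox9 to 1.90 for Krt19, which had low means of 19.7 and 38.1. The 12 Kupffer cell and leukocyte markers were divided, with 7 above 1, a range from 0.647 for Marco to 1.27 for Vsig4, and sums of 14931 and 14887. Of 6 hepatocyte markers only Alb was above 1, with 1.33, and Tat was lowest with 0.619. Their sums were 2232580 in males and 2765220 in females, the highest of the 5 lists in each sex, and most of each was Alb. Without Alb the sums were 506337 and 432282. Whether cell composition has a part in the ratios of the proteasome genes was not tested.

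Other genes of the pathway were listed beside the 40, and 36 of 38 were found in both tables by gene symbol. Paaf1 was not found under that symbol, and an entry under another name was not sought. The thymus-restricted core subunit Psmb11 was found in the male table only. Psma8, the alpha subunit of the testis, had a mean normalized count of 30.9 in males and 33.8 in females, against 1971 and 1875 for Psma7, whose place it takes. Other lengths were not tried for these pathway genes, so their order holds per coding kb only. The small cap subunit Sem1 had 3251 per kb in males and 3169 per kb in females, above all 18 cap genes among the 40. Its coding sequence has 282 bases, and its mean normalized counts of 917 and 894 lay below all 18. The cap-bound deubiquitinases Usp14 and Uchl5 had 1066 and 493 per kb in males and 1056 and 426 per kb in females. The core chaperones Psmg1, Psmg2, Psmg3 and Psmg4 had between 248 and 431 per kb in males and between 230 and 426 per kb in females. The cap chaperones Psmd10 and Psmd5 had 302 and 611 per kb in males and 281 and 572 per kb in females, and Psmd9 was the highest chaperone with 1524 and 1358 per kb. Pomp thus stood above each of these 7 chaperones in both sexes.

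Midn itself had a mean normalized count of 1672 in males and 1357 in females over WT and Midn-T livers together, or 1199 and 973 per kb, with a rescaled ratio of 0.798. That mean pools trapped and untrapped livers, and the cassette leaves the first exons transcribed. The other adaptors and inhibitors were near it per coding kb. Ecpas had 1073 and 990.2, Akirin2, which brings proteasomes into the nucleus, 960 and 985, and the inhibitor Psmf1 900 and 927 in males and females. Their mean normalized counts were far apart. These ran from 579 for Akirin2 to 5924 for Ecpas in males, and from 594 to 5466 in females. Among the genes that control subunit transcription, Nfe2l1, the factor that raises subunit genes when proteasome activity falls, had 1748 per kb in males and 1941 per kb in females. The protease Ddi2, which cleaves it, had 2903 and 3179 per kb, the segregase Vcp 4378 and 3961 per kb, Ngly1 762 and 722 per kb, and Nfe2l2 1337 and 1441 per kb. Nfe2l3 was nearly silent, with a mean normalized count of 11.9 in males and 11.5 in females. Of these 6 genes 3 had rescaled ratios above 1, from 0.889 for Vcp to 1.09 for Nfe2l1, with a median of 1.01.

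Per coding kb, Rps27a and Ubb, genes that supply ubiquitin, were higher than all 40 genes. Rps27a had 7525 per kb in males and 7295 per kb in females, and Ubb 4551 and 4414 per kb. In mean normalized counts Rps27a had 3522 and 3414 and Ubb 4164 and 4039, below Psme4 with 7067 and 5816. Among the shuttle receptors, which carry ubiquitinated proteins to the cap, Rad23b had 4389 and 3997 per kb and Ubqln2 375 and 339 per kb. Ubqln1 had 2245 and 2339 per kb and Ubqln4 632 and 604 per kb. Genes of antigen presentation, which receive the peptides that the proteasome makes, spanned a wide range. B2m had 79325 and 79150.1 per kb, H2-K1 21126 and 21775 and H2-D1 10689 and 10635 per kb, whereas the peptide transporter genes Tap1 and Tap2 had 345 and 273 per kb in males and 329 and 321 per kb in females. Tapbp had 2235 and 2544 per kb. Their rescaled ratios were 1.16 for Tap2, 1.12 for Tapbp and 1.01 for H2-K1, but 0.937 for Tap1, 0.978 for H2-D1 and 0.981 for B2m.

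Promoters of the 40 genes were read from GRCm39 over 250 bases before and 50 bases from the start of the canonical transcript, and 4 short motifs were searched on both strands. The letters TGACNNNGC, the core of the antioxidant response element that NFE2L1 and NFE2L2 bind, were present in 7 of 40 promoters, or 17.5%, against 13.4% of 12922 other expressed coding genes and 12.5% of 21730 other coding genes. CCAAT was present in 16, or 40%, against 39.5% of expressed genes. GGGCGG, the letters of a GC box, were present in 26, or 65%, against 56.3%. TATAAA was present in 5, or 12.5%, against 8.53%. These shares lie near those of expressed genes at large, and a match of letters is a description and not a site of binding.

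Stretches of 5 of the promoters in which TGACNNNGC lies wholly before the start site are shown, since they include the catalytic genes Psmb5 and Psmb6, where it lies within 40 bases of the start. Each stretch is written 5′ to 3′ on the strand of the gene, with the match in capitals. In Psmc6, Psmd7 and Psmd12 the match is on the opposite strand, so that the capitals hold its reverse complement. The coordinates are chr14:54855482-54855511 on the minus strand for Psmb5, chr11:70416162-70416182 on the plus strand for Psmb6, chr14:45567042-45567074 on the plus strand for Psmc6, chr8:108315202-108315234 on the minus strand for Psmd7 and chr11:107370095-107370127 on the plus strand for Psmd12.
Psmb5: gacgtgaagttgTGACGTCGCggcgttgcc
Psmb6: gactaaagagagTGACGGAGC
Psmc6: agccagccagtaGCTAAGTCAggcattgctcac
Psmd7: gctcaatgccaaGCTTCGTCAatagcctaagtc
Psmd12: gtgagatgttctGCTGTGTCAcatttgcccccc

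Counted from the start site at 0, the match began at base -18 in Psmb5, -9 in Psmb6, -161 in Psmc6, -101 in Psmd7 and -201 in Psmd12. In Psmb2 it began at base -1 and reached into the transcript. The levels of these 6 genes ranged widely. Psmb6 had 2472 per kb in males, Psmb2 1796, Psmc6 1784, Psmd7 1382, Psmd12 1315 and Psmb5 809 per kb.

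Several proteasome genes begin next to a coding gene on the other strand. For 8 of 40, or 20%, another coding gene starts within 1000 bases on the opposite strand, against 13.1% of the 12962 expressed coding genes. In 5 of the 8 the start sites of the canonical transcripts lie back to back, with a short stretch between them. In the other 3, Psma4 with AY074887, Psmb9 with Tap1 and Psme2 with Rnf31, the 5′ ends of these transcripts overlap on opposite strands. The authors counted reads by strand. Other annotated transcripts can start elsewhere. Over all annotated exons Psma7 shared 132 bases with Ss18l1, and Psmd13 shared 1689 with Cox8b and Sirt3. The 5 stretches are shown on the strand of the proteasome gene, with CCAAT and GGGCGG or their reverse complements in capitals. They lie at chr13:14787751-14787803 on the plus strand between Psma2 and Mrpl32, chr2:179684249-179684289 on the minus strand between Psma7 and Ss18l1, chr5:21990250-21990300 on the plus strand between Psmc2 and Dnajc2, chr11:106146930-106146950 on the plus strand between Psmc5 and Ftsj3, and chr7:140461796-140461880 on the plus strand between Psmd13 and Sirt3.
Psma2: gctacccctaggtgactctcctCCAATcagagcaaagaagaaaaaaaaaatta
Psma7: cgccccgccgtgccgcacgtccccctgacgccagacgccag
Psmc2: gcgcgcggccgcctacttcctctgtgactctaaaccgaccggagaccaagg
Psmc5: ggtggtgacccagggcgcatg
Psmd13: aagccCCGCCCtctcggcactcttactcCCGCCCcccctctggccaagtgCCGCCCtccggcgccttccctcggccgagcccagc

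The stretches differed in make-up, from 39.6% G and C between Psma2 and Mrpl32 to 80.5% between Psma7 and Ss18l1. Only the stretch of Psma2 held CCAAT and only that of Psmd13 held GC boxes. Genes on either side of a stretch did not have like levels per coding kb. Psma7 had 2650 per kb in males against 183 per kb for Ss18l1, and Psma2 had 2095 against 819 per kb for Mrpl32, a gene of the mitochondrial ribosome. Psmc2 had 1417 against 332 per kb for Dnajc2, and Psmc5 had 1149 against 571 per kb for Ftsj3. In mean normalized counts Psmc5 and Ftsj3 were close in males, with 1399 and 1436, and had 1371 and 1012 in females. Per coding kb the proteasome gene was the higher in 4 of the 5 pairs. Psmd13 was the exception, with 1159 against 2895 per kb for Sirt3, a mitochondrial deacetylase. The rescaled female to male ratios differed across the stretches too, with 0.963 for Psmc5 and 0.692 for Ftsj3, and 0.815 for Psmd13 and 1.04 for Sirt3.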

How the data were processed

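RNA-seq libraries of 12 livers, depleted of ribosomal RNA and stranded, were read as pairs of 150 bases. Alignment to GRCm39 was made by the authors with STAR (version 2.7 per the labels). HTSeq then counted uniquely mapped reads per Ensembl gene on the reverse strand, and the authors ran DESeq2 on males and females separately. The deposited signal column used here is the authors' mean over the 6 livers of 1 sex of counts divided by DESeq2 size factors, which depend on the other libraries of that sex. The deposited tables also hold the authors' own comparison of genotypes (log2 fold change, its standard error, Wald statistic, p-value and adjusted p-value), which was not used. The linear model per gene between genotypes that was planned could not be run without values per liver, and the depth of each library, and so the precision of each mean, is unknown. The deposited ATAC-seq peak lists hold the outcome of a comparison and were not used. There were 56884 genes listed for males and 18149 for females, and 18045 of the shared genes were found in GENCODE M39, which is newer than the authors' Ensembl annotation but of the same build. Summed over genes, the means came to 3.03e+07 (male) and 3.08e+07 (female).

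Means were divided by the coding length of the Ensembl canonical transcript. The union of exons had been planned. The coding length was chosen after the annotated lengths were seen, because exons of long-read transcripts in M39 are up to several kb longer than the usual transcripts. The value per kb of coding sequence overstates genes with long untranslated regions. Percentiles and ratios are relative to protein-coding genes with a mean of at least 10 in both sexes, or at least 100 as an alternative. The 75-base words of the coding sequences were searched on both strands of the whole genome, and copies are listed where a run of shared words reached 150 bases. Both searches were tested on simulated data and found every planted copy and motif. An alternative was said to move a value where it changed it by more than 1.5-fold, and a share where it left the exact 95% binomial interval, which covers counting error only. Replicates were not available, so no spread between mice enters. The genes, roles, pathway list, marker lists and motifs were chosen with earlier results of these data known. All 40 genes are named with values and markers are given by range. Values of some pathway genes and the sequence at 1 promoter are not reported here. Alternatives were other lengths, other scalings between the sexes, other backgrounds and a shorter promoter. Analyses used pandas 2.3.3, numba 0.67.0, scipy 1.17.1, matplotlib 3.10.9 and numpy 2.4.6 under Python 3.11.15.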

Additional observations from a re-analysis of the deposited data

How the results depend on the processing

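No paired analysis was possible because no value of a single liver was used, so the replicate numbers in the labels mark no measurement. No liver was left out in turn, for the same reason. The choice of length decided most of what follows, and every setting below named as whole canonical transcript or, for the core over cap median, no length scaling was chosen after seeing the data.

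The median of core over cap genes fell to 1.16 in males and 1.04 in females per kb of all annotated exons, to 1.195 in females per kb of the longest transcript, and to 1.02 and 1.01 with no length scaling. Spreads within a role are given as males and then females. Per kb of all annotated exons they were 3.51 and 3.70-fold in the alpha ring, 5.43 and 5.13-fold in the structural beta genes, 2.25 and 2.49-fold in the catalytic genes, 4.41 and 3.76-fold in the immunoproteasome, 2.85-fold in the male ATPases, 3.55 and 3.89-fold in the other base genes and 5.48 and 4.61-fold in the lid. Per kb of the longest transcript they were 2.98 and 3.11-fold in the alpha ring, 5.08 and 4.81-fold in the structural beta genes, 4.33 and 3.69-fold in the immunoproteasome, 3.07 and 3.14-fold in the ATPases, 4.11 and 4.50-fold in the other base genes and 5.69 and 5.60-fold in the lid. Per kb of the whole canonical transcript they were 4.97 and 4.88-fold in the alpha ring, 7.43 and 7.02-fold in the structural beta genes, 5.83 and 6.18-fold in the catalytic genes and 3.32 and 4.24-fold in the activators. Per unique coding position they were 11.0 and 10.4-fold in the alpha ring, 2.17 and 2.30-fold in the catalytic genes, 5.69 and 4.96-fold in the other base genes and 4.05 and 5.16-fold in the activators.

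The ratio of Psmb8 to Psmb5 was 0.524 and 0.731 per unique position and 0.528 and 0.737 per kb of all exons. That of Psmb9 to Psmb6 was 0.115 and 0.135 per kb of all exons and 0.118 and 0.138 per kb of the longest transcript, and that of Psmb10 to Psmb7 was 0.966 and 1.01, and 0.722 and 0.753. The number of genes with a female to male ratio above 1 was 10 with no rescaling and also 10 against genes with a mean of at least 100. The members' median over that of all coding genes, their share of the length-scaled signal, their median percentile, the median ratio between the sexes and the shares of promoters with a motif moved under none of the alternatives run.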
